A study of Mus musculus with 18 samples.

Results

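ATAC-seq, in which the Tn5 transposase cuts and tags open chromatin, was used to compare peripheral T-cell lymphomas of mice with normal lymphocytes. The regions described here are the peaks where the lymphomas were less accessible than every kind of normal cell measured. They were chosen by the measured values themselves, from the library-scaled log2 counts (log2 CPM) in the larger deposited table. A peak was taken where at least 7 of the 9 lymphoma libraries lay below the lowest of the 9 normal libraries, on any chromosome other than 2, 10, 13 and 16. The rule found 1337 peaks among the 50874 peaks of the 15 chromosomes it covered (2.63%), in a table of 61224 peaks of 500 bp on the mm10 build. They are called lost peaks below, for their position relative to the normal libraries and not for a complete absence of signal.

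The 9 lymphomas (mPTCL) were sorted from the liver and had arisen from p53KO T cells placed in CD3KO C57BL/6 recipients, which have no T cells of their own. The normal groups held 3 libraries each of wild-type cells. Spleen gave the T cells, sorted as CD3+ Thy1+, and the NK cells, sorted as CD27- CD11b+. NKT cells were CD3+ and bound a CD1d tetramer carrying alpha-GalCer, and their source label is the liver while their titles read Sp. Each library was made from 10000 sorted cells. Genotype, sort gate and, for T and NK cells, tissue differ together between lymphomas and normal cells and cannot be told apart. No label ties the 3 libraries of a normal group to different animals, and p-values then measure only the spread between these samples, which may be technical. In these bulk libraries fewer cells with an open site and less opening per cell cannot be told apart.

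The NK libraries were the shallowest, with 417107 to 596601 counts in peaks. Lymphoma libraries held 670358 to 4844441 counts, T libraries 979441 to 2358023 and NKT libraries 1433904 to 9097014. Peaks of 6 T-cell marker genes (Cd3d, Cd3e, Cd3g, Cd5, Cd6 and Cd28) summed to 136 to 273 CPM in lymphomas and 178 to 200 in NK cells, below the 415 to 521 of T and the 635 to 698 of NKT cells. The single genes differed. Cd3d stood at 50.8 to 96.1 CPM in lymphomas and 41.2 to 48.7 in NK cells, and Cd3e at 17.7 to 45.9 and 0 to 8.29. Both overlapped the T libraries (71.3 to 141 and 32.9 to 56.5). Cd5, Cd6 and Cd28 lay below all T libraries and overlapped the NK libraries, and Cd3g overlapped both groups. Peaks of 4 NK marker genes (Ncr1, Klrb1c, Eomes and Tyrobp) summed to 86.4 to 147 CPM in lymphomas and 127 to 146 in NK cells, above the 31.9 to 59.3 of T and the 32.8 to 41.2 of NKT cells. Lymphomas overlapped the NK libraries at Ncr1, Klrb1c and Eomes, but at Tyrobp all lay below them (16.7 to 41.3 against 47.5 to 82.9 CPM). Accessible hepatocyte and myeloid markers were few: 1 of 5 and 2 of 6 genes had a peak, at 13.9 to 72 and 22.7 to 65.5 CPM in the lymphomas. The hepatocyte gene stood at 3.19 to 8.87 CPM in T libraries, 3.2 to 7.58 in NKT libraries and 8.29 to 47.5 in NK libraries, and the myeloid genes at 8.52 to 15.4, 7.21 to 10.5 and 15.8 to 38.1, so that every lymphoma lay above all T and NKT libraries. No peak of the marker genes of other cells (0 of 26) was a lost peak, and the part of such cells in the results was not tested.

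A promoter is the stretch around a transcription start where RNA polymerase and general factors assemble. At genes used by most cells it usually lies in CpG-rich DNA and is accessible in many cell types, whereas peaks in introns and between genes are more often enhancers, which differ from one cell type to another. Accessible promoters give the strongest ATAC-seq peaks. Lymphocytes keep cell identity and quiescence through transcription factors such as Ets1, Bach2, Tox, Foxp1 and Klf2.

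Sequences of 4 lost promoters are shown first, because they differ widely in base composition and in the size of the shortfall. Each run holds the bases upstream of the RefSeq start site (GRCm38.p6, up to 250 bases), printed 5′ to 3′ on the gene's strand, with each CpG in capitals. Map9 encodes a microtubule-associated protein, Zfp418 a zinc-finger protein, Ube3a a ubiquitin ligase, and Tusc1 is named for tumour suppression.
Map9 (chr3:82357822-82358071, plus strand): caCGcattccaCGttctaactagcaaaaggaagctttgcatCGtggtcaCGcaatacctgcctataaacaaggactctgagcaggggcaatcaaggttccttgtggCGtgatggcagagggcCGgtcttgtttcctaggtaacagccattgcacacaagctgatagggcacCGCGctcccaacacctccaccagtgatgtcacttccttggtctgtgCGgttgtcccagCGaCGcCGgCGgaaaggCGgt
Tusc1 (chr4:93335512-93335761, minus strand): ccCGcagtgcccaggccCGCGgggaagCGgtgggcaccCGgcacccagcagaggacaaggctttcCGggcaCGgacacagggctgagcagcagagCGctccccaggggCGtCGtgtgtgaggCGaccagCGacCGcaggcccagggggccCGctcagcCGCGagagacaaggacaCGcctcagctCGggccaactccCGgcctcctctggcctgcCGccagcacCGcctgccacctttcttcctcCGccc
Zfp418 (chr7:7171103-7171352, plus strand): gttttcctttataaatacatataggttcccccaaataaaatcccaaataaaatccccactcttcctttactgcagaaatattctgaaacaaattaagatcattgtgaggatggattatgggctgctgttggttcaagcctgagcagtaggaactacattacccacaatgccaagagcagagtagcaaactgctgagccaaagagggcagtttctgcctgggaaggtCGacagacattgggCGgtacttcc
Ube3a (chr7:59228500-59228749, plus strand): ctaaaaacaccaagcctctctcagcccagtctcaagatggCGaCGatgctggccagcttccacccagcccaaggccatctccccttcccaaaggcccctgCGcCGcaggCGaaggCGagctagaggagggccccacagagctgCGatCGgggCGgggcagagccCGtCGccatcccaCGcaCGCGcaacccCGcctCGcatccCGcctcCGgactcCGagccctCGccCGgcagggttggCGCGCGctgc
The upstream run of Tusc1 held 22 CpGs at 73.2% GC and that of Ube3a 24 CpGs at 70% GC, that of Map9 14 at 55.6%, and that of Zfp418 only 2 at 43.2%. The median lymphoma minus the mean normal library was -4.42 log2 units at the Map9 peak, -2.53 at Tusc1, -1.74 at Zfp418 and -1.25 at Ube3a.

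Most lost peaks were lower by a modest amount at a strongly open site. The difference, median lymphoma minus mean of the normal libraries, had a median of -1.09 log2 units over the lost peaks and 0.51 over all peaks of the covered chromosomes. At 818 lost peaks (61.2%) the shortfall was at least 1 log2 unit, at 142 (10.6%) at least 2 and at 29 (2.17%) at least 3. The typical lost peak stood at 5.77 log2 CPM in normal libraries and 4.71 in lymphomas, where the typical covered peak stood at 2.77 and 3.32. Of the lost peaks, 518 had 7 lymphomas below, 421 had 8 and 398 had all 9. The mirror rule, at least 7 lymphomas above every normal library, held for 2989 peaks (5.88%). These values follow from the rule and are given as a description.

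**Figure D1:**
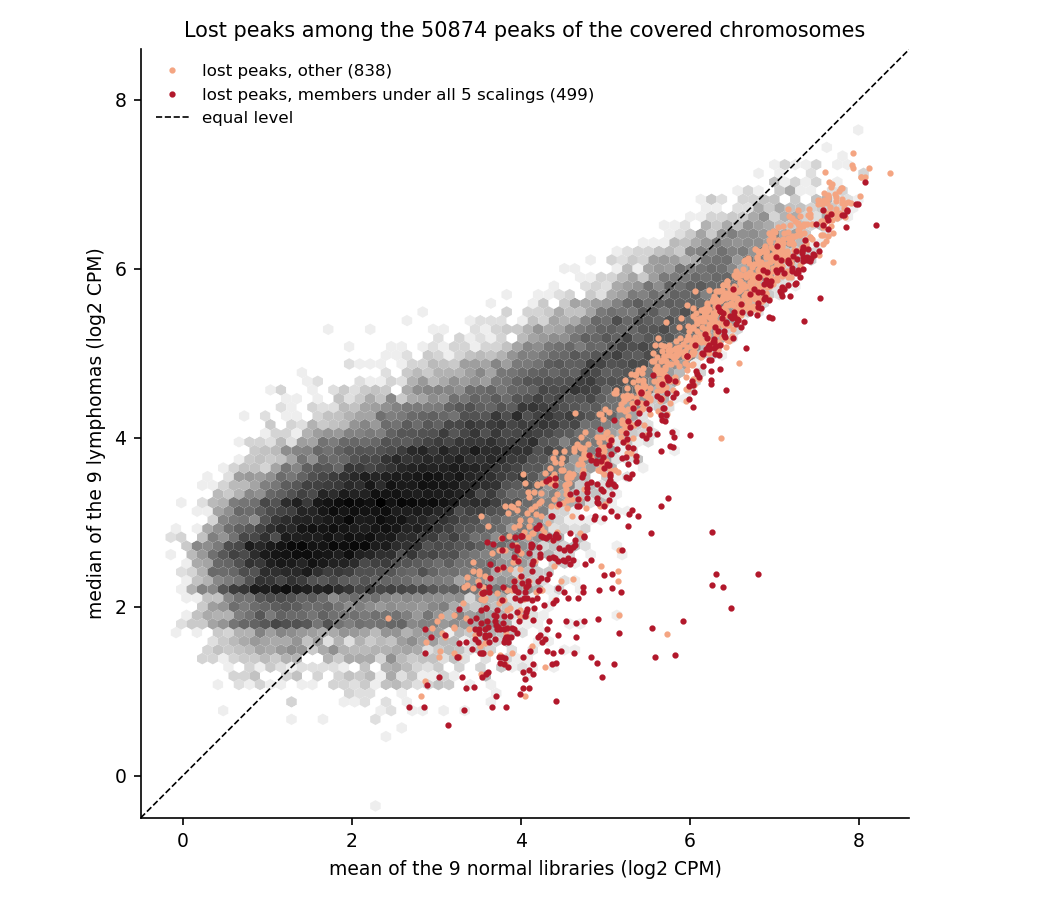
Mean of the 9 normal libraries (x axis, log2 CPM) against the median of the 9 lymphomas (y axis, log2 CPM) for 50874 peaks, with grey density on a log scale for all peaks and colored points for the 1337 lost peaks. Dark red marks the 499 that met the rule with the deposited values and under 4 other scalings. Lost peaks run along the lower edge of the cloud, and 29 of them lie at least 3 log2 units below the dashed line of equal level.

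Library medians over the lost peaks, whose order the rule fixes, were 4.49 to 4.94 log2 CPM in lymphomas. They were 5.79 to 5.85 for T, 5.96 to 6.01 for NKT and 5.63 to 5.73 for NK libraries. The lowest normal library was an NK library at 874 lost peaks (65.4%), a T library at 273 and an NKT library at 190. NK libraries were also the lowest at 53.8% of all covered peaks. Without the 3 NK libraries the rule would have taken 5810 peaks.

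The call of the quasi-likelihood test in edgeR (adjusted p below 0.05) is given for these peaks only as a description, because the rule used the same contrasts. Against NKT cells 1198 of 1337 were called lower, where 19.4% of all tested peaks were. Against T cells 1064 were called lower, with 11.4% of all tested peaks, and against NK cells 693, with 3.76%. None was called higher in any of the 3. The median log2 fold changes of the lost peaks were -1.18, -1.10 and -0.98 in that order, beside 0.27, 0.26 and 0.30 over all tested peaks. The 3 comparisons share the lymphomas.

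The margin, the gap between the lowest normal library and the seventh-lowest lymphoma, was small at most of these peaks. Its median was 0.25 log2 units, 317 lost peaks (23.7%) had less than 0.1, 55 (4.11%) had at least 1 and 7 had at least 2. Just inside the rule were an Arhgef18 promoter peak and a Maml2 intron peak, each with a margin of 0.001. Just outside were an Actl6a promoter peak and a peak flanking Gm22696, each with 6 lymphomas below and a margin of -0.001.

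Among the widest margins were promoters of genes with unlike functions. The widest, 3.08 log2 units, was a 5′ UTR peak of Cyp2r1, the vitamin D 25-hydroxylase of the liver and other tissues (chr7:114562248-114562748). Lymphoma values there ran from -0.36 through a median of 1.41 to 2.09 log2 CPM, where -0.36 is the value of a peak with no count. T libraries stood at 5.75, 5.67 and 5.48, NKT at 5.72, 5.96 and 5.52, and NK at 6.16, 5.12 and 4.95 log2 CPM. All 9 lymphomas lay below the lowest normal library. The positions are the authors', and the tables do not state if they start at 0 or 1.

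Irs2, which encodes an adaptor of insulin and IL-4 receptors, had a promoter peak (chr8:11008632-11009132) with a margin of 2.57. Lymphomas ran from 0.88 through 2.23 to 5.42 log2 CPM. The T libraries stood at 6.04, 6.39 and 6.21, the NKT libraries at 6.54, 6.55 and 6.73, and the NK libraries at 6.71, 6.18 and 6.14. All 9 lymphomas were below, but mPTCL 4 at 5.42 and mPTCL 8 at 4.34 were much nearer the normal range than mPTCL 3 at 0.88. The 3 neighbouring lost peaks of Irs2 and 9530052E02Rik spanned 2.09 kb and had a median difference of -3.06.

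Tle1 encodes a Groucho-family co-repressor that acts with several DNA-binding factors, and its promoter peak (chr4:72200768-72201268) differed between the normal groups as well. Lymphomas ran from -0.36 through 1.99 to 3.04 log2 CPM. The T libraries stood at 7.75, 7.99 and 7.44, the NK libraries at 7.13, 6.71 and 7.07, and the NKT libraries at 4.85, 4.90 and 4.55. The NKT minus T difference was -3.01 ± 0.34 log2 units (SE; edgeR, adjusted p = 3.16e-06), and NK cells were 2.24 ± 0.34 above NKT cells (edgeR, adjusted p = 8.49e-05). So the peak was lowest in lymphomas, intermediate in NKT cells and high in T and NK cells, with no overlap between those 3 levels. Tle4, a second member of the family, had a lost promoter peak of smaller difference, at 6.36 to 7.02 log2 CPM in lymphomas and 7.13 to 8.12 in the normal libraries. All 9 lymphomas were below at Tle4 with the deposited values, but only 2 under cyclic loess, a scaling that removes a trend with level.

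Mgmt repairs alkylated guanine in DNA. Its promoter peak (chr7:136894342-136894842) had a margin of 1.94, with lymphomas from -0.36 through 1.69 to 2.31 log2 CPM and every lymphoma below. Normal values were 5.78, 5.21 and 5.86 in T, 5.26, 5.55 and 5.62 in NKT, and 4.12, 4.71 and 4.31 in NK cells. The Zfp975 promoter, of a zinc-finger gene, had a margin of 1.89, lymphomas from 0.66 to 2.1 log2 CPM and normal libraries from 3.72 to 5.70.

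At some of the widest margins 1 lymphoma stood with the normal cells. The Map9 promoter (chr3:82357674-82358174) had lymphoma values from 0.06 through 2.39 to 6.51 log2 CPM, and the highest, mPTCL 9, lay above the 3 NK libraries at 6.35, 5.80 and 5.89. T libraries stood at 7.43, 7.08 and 6.89 and NKT libraries at 7.45, 7.19 and 7.21. At the promoter of Boll, a germ-cell RNA-binding protein, mPTCL 4 stood at 5.58 log2 CPM and the other 8 lymphomas at 0.39 to 2.50. Normal libraries at the Boll peak ran from 4.52 to 6.61. An intronic peak of Zmiz1, which encodes a transcriptional coactivator, was low in all 9 lymphomas at 1.04 to 2.87 log2 CPM and narrow in the normal libraries, from 3.65 to 4.15.

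**Figure D2:**
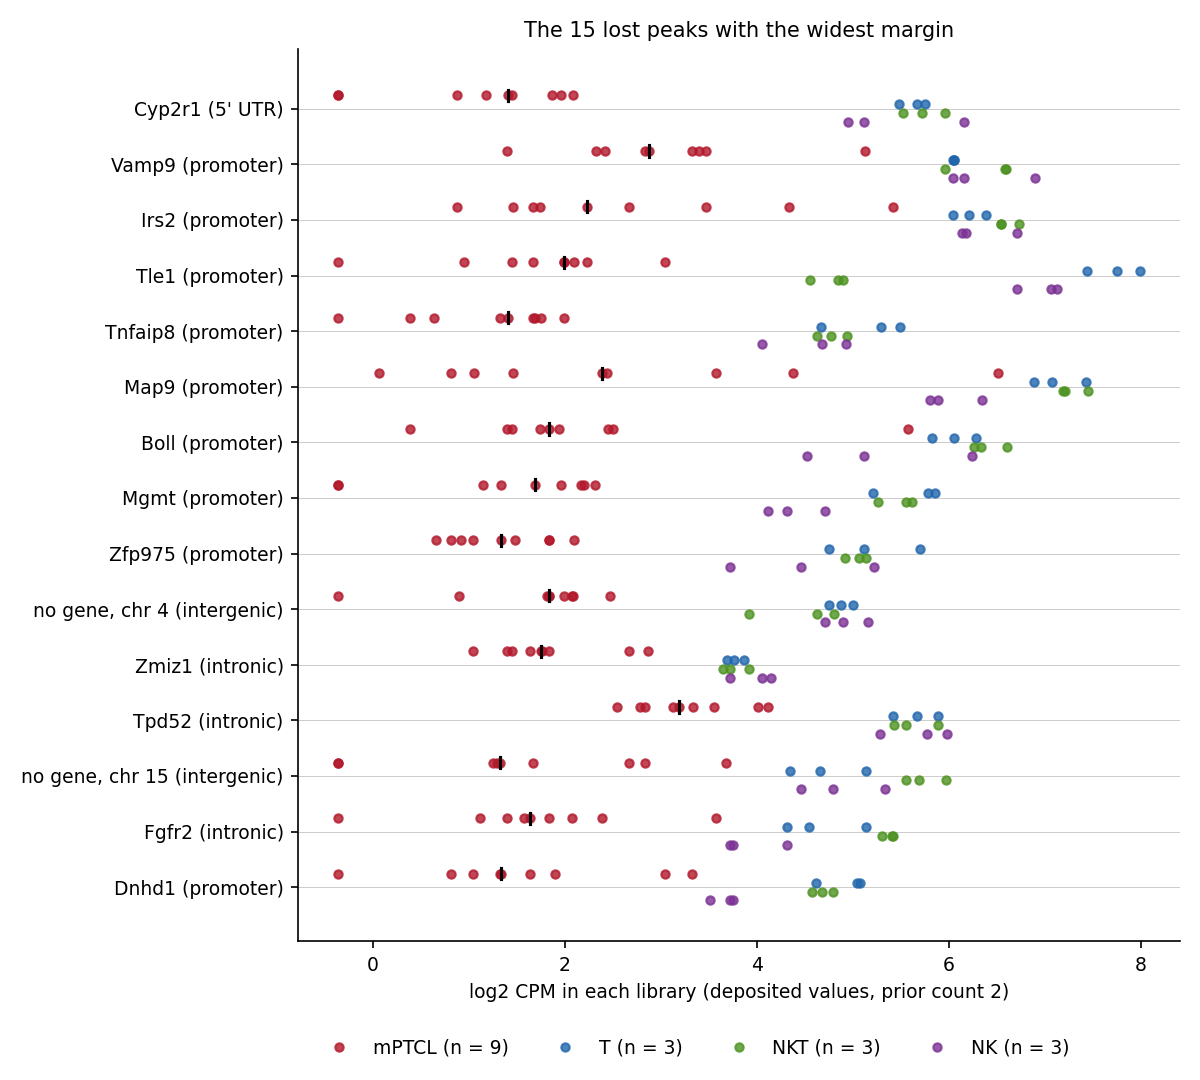
Deposited log2 CPM in each library (x axis) at the 15 lost peaks of widest margin (y axis, first gene symbol and class), with red for 9 lymphomas (black tick, their median), blue for T, green for NKT and purple for NK cells (3 libraries each). At Tle1 the NKT libraries sit between 4.55 and 4.90, below the T and NK libraries. At Boll and Map9 one red point lies among the normal ones.

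By the deposited annotation 886 lost peaks (66.3%; 95% Wilson interval 63.7 to 68.8, counting error only) were at promoters, against 32.1% of covered peaks. Introns held 239 (17.9% against 31.7%), intergenic regions 100 (7.48% against 15.6%), flanking regions 44, exons 36, 3′ UTRs 17 and 5′ UTRs 15. Gained peaks held fewer promoters than covered peaks did (22.5%), and their intronic share of 32.2% was near that of covered peaks. The larger losses were not mainly promoters: of the 142 lost peaks lower by at least 2 log2 units, 66 (46.5%) were intronic and 43 (30.3%) were promoters. The median difference was -1.01 at promoter and -1.62 at intronic lost peaks.

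The promoter share moved with signal strength. Among covered peaks ordered by mean level over the 18 libraries and cut into deciles, the strongest decile held 699 lost peaks, 13.7% of that decile, and the weakest held 3. The rule itself barred many weak peaks, since a peak with no count in a normal library could not meet it. Of all peaks, 12.7% to 24.7% had no count in the single NK libraries. Promoters made up 93.6% of the lost peaks in the strongest decile and 87.9% of all peaks there, and 61.7% and 59.9% in decile 9. In decile 7 they made up 19.8% of lost peaks and 29.8% of all. Over all peaks the median difference between lymphomas and normal libraries ran from 1.34 in the weakest decile to -0.35 in the strongest. With cyclic loess, a scaling that removes a trend with level and was chosen after seeing the data, promoters made up 38.8% of the peaks that met the rule. Of the 499 lost peaks that also met it under library totals, RLE factors, TMM within each chromosome and loess, 259 (51.9%) were promoters.

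**Figure D3:**
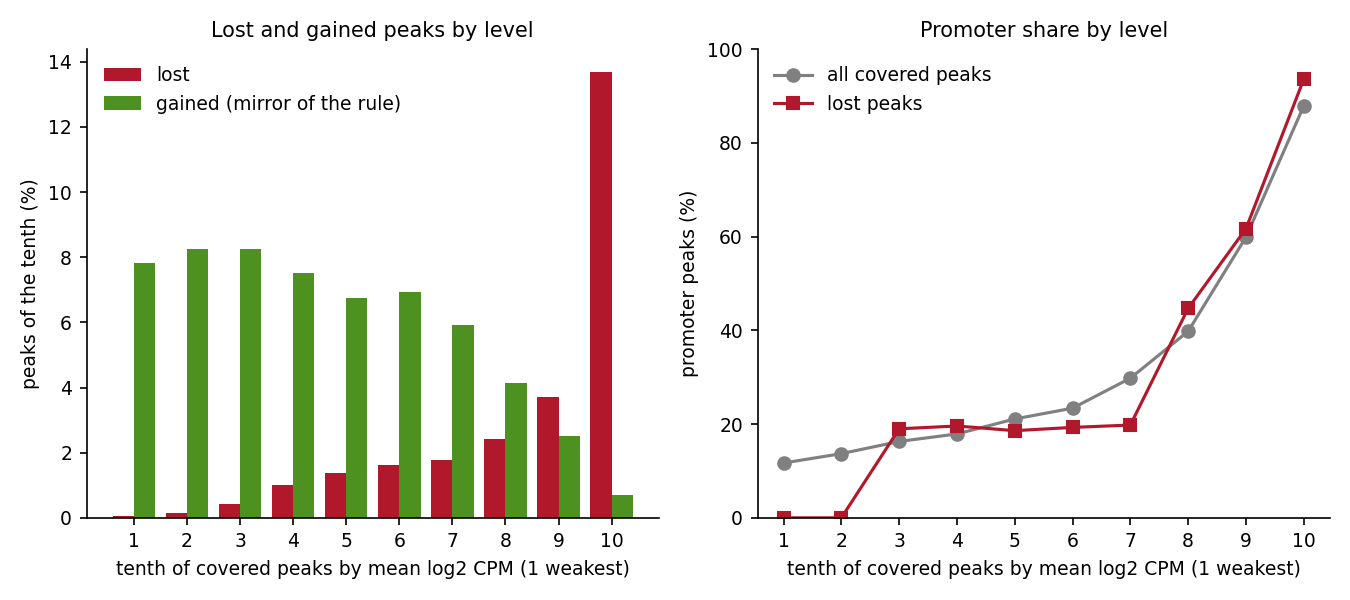
Left, share of each decile of covered peaks by mean log2 CPM (x axis, 1 weakest) that was lost (red bars) or gained (green bars), in percent. Right, promoter share in percent of all covered peaks (grey) and of lost peaks (red) in each decile. Lost peaks climb to 13.7% of the strongest decile, gained peaks fall to 0.688%, and the 2 promoter lines lie close together in the 3 strongest deciles. A peak with no count in a normal library could not be a lost peak.

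Sequence was examined in 300-base RefSeq windows, from 250 bases before to 50 after a start. A window was used where at least 200 of its bases lay in a promoter peak of its own gene, which held for 484 of 886 lost promoters (54.6%) and 5650 of 16350 covered promoter peaks. Median GC was 63.3% in lost and 62.7% in other promoters, with a median of 24 and 23 CpGs. CpG-rich windows (GC of at least 55% and an observed over expected CpG ratio of at least 0.65) were 72.1% of lost and 66.6% of other promoters. Among promoters above the median level they were 77.4% and 79.1%. Among the 14 lost promoters with a loss of at least 2 log2 units, 7 were CpG-rich and median GC was 57.8%.

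A search of 24 motifs, each on both strands, was run on the lost windows and on all 5650 windows. The ETS motif CCGGAAGT was in 6.82% of lost and 8.62% of all windows, and its shorter core AGGAAGT in 10.3% and 9.36%. GC-rich motifs were the SP motif GGGGCGGGG in 30.8% and 26% of windows, the KLF motif GGGCGTGG in 14.7% and 12.1%, the EGR motif GCGTGGGCG in 1.03% and 1.27% and the NRF1 motif GCGCATGCG in 3.1% and 4%. SP, KLF and EGR motifs share letters, so 1 stretch can hold parts of several. E-boxes were CACCTG (ZEB) in 13.4% and 17.8%, CAGCTG (E proteins) in 12.6% and 14.1%, and CACGTG (MYC and USF) in 12.8% and 11%. Lymphoid motifs were RUNX TGTGGTT in 2.89% and 3.45%, TCF7 and LEF1 TTCAAAG in 4.75% and 3.19%, NFAT TGGAAAA in 3.93% and 3.59%, the GATA-factor motif AGATAAG in 1.45% and 1.43%, and T-box AGGTGTGA in 0.207% and 0.726%. Signal-dependent motifs were AP-1 TGANTCA in 3.51% and 4.27%, STAT TTCNNNGAA in 6.4% and 5.86%, CRE TGACGTCA in 3.72% and 3.56%, and, by name, IRF in 2.69% and 2.48% and NF-kappaB in 26.7% and 28.5%. YY1 AAGATGGCG was in 2.48% and 3.31%, the CTCF core in 20.2% and 20.9%, NR4A AAAGGTCA in 0% and 0.549%, and ROR in 0% and 0.0885%. Among promoters above the median level, NRF1 was in 2.95% of lost and 5.71% of other windows, ETS in 7.13% and 10.7%, and SP in 32.9% and 30.3%. The p53 motif was in 1 lost window (0.207%) and in 0.195% of all. A match is only a run of letters in the window.

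The share of peaks lost differed between chromosomes, in step with the share of each library's counts on them. Chromosome 18 had the highest share, 8.5% (119 peaks), followed by 7 with 5.47% (192), 6 with 5.36% (154) and 1 with 5.34% (179). Chromosome 15 had 0.169% (8 peaks), 5 had 0.425% (23), 11 had 0.457% (28) and 17 had 0.770% (30). The log2 ratio of the mean share of counts, lymphomas over normal libraries, was -0.37 on chromosome 18 (2.1% against 2.72%), 0.73 on 15 (7.96% against 4.79%) and 0.46 on 11. With TMM within each chromosome the shares ran from 0.927% on 15 to 3.93% on 7, and chromosome 18 had 3.43%. Of the 1337 lost peaks, 901 (67.4%) met the rule under that scaling. The part of chromosome copy number was not tested.

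**Figure D4:**
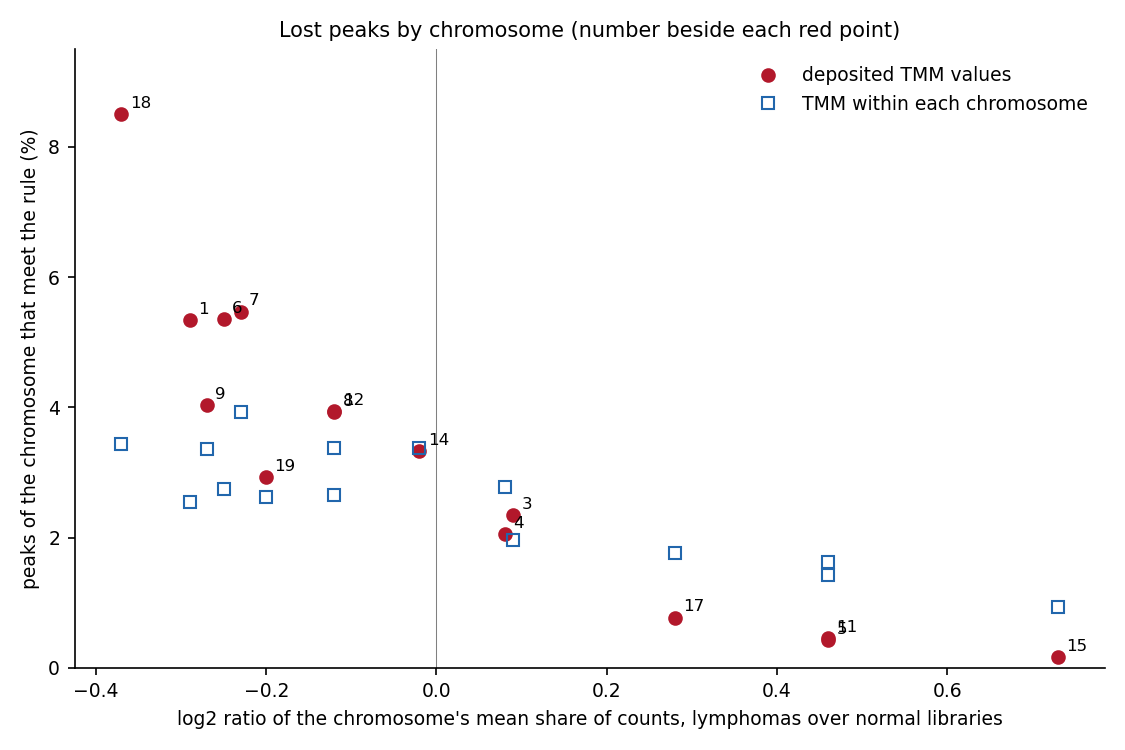
Share of each covered chromosome's peaks that met the rule (y axis, percent) against the log2 ratio of its mean share of counts in lymphomas over normal libraries (x axis), with red circles for deposited values and blue squares for TMM within each chromosome. Red points fall from 8.5% on chromosome 18 to 0.169% on chromosome 15, and the blue squares span 0.927% to 3.93%.

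Single lymphomas departed from the group on particular chromosomes. mPTCL 7 was below every normal library at 95.3% of lost peaks, mPTCL 8 at 83.1% and mPTCL 9 at 74.6%. mPTCL 7 was the deepest lymphoma library (4844441 counts), and mPTCL 8 (670358) and mPTCL 9 (1040523) were the shallowest. The order did not hold throughout: mPTCL 2, with 1422130 counts, was below at 92.7%, and mPTCL 3, with 3771074, at 86.1%. The part of depth was not tested. mPTCL 9 was not below at 51 of 119 lost peaks of chromosome 18 (42.9%) and 60 of 154 of chromosome 6 (39.0%). It carried 2.70% of its counts on chromosome 18, where the other lymphomas carried 1.81% to 2.22%, and 5.41% on chromosome 6, where they carried 3.90% to 4.74%. mPTCL 1 was not below at 57 of 98 on chromosome 12 (58.2%), which held 5.39% of its counts against 3.36% to 4.66% in the others. In mPTCL 3 the same held for 15 of 28 on chromosome 11, with 13.6% of its counts against 9.34% to 12.0%. On chromosome 3 in mPTCL 3 and chromosome 8 in mPTCL 9 the share lay inside the range of the other lymphomas, though above the normal libraries. mPTCL 3 was not below at 46 of 86 on chromosome 3 (53.5%). It had 6.65% of its counts there, against 4.26% to 6.96% in the other lymphomas and 4.87% to 5.81% in normal libraries. mPTCL 9 was not below at 34.3% on chromosome 8. Its share there was 5.58%, against 3.84% to 6.11% in the other lymphomas and 4.93% to 5.34% in normal libraries. Some departures came without a share above the normal libraries. mPTCL 9 was not below at 49 of 179 on chromosome 1 (27.4%), with 5.62% of its counts there against 6.15% to 7.14% in normal libraries. mPTCL 3 was not below at 14 of 48 on chromosome 19 (29.2%), with 2.85% against 2.31% to 3.25%.

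Most lost peaks had no lost peak as direct neighbour, but 441 of the 1337 had another within 50 kb. The share for peaks scattered by chance was not computed. The lost peaks named 1361 of 16423 genes with a covered peak (8.29%), 134 genes had at least 2 and 17 had at least 3. Of 1177 runs of neighbouring lost peaks, 1054 held 1 peak and the longest held 6. Atp10a, a phospholipid flippase gene, and Lncpint, a long non-coding RNA, had 5 each, of 17 and 26 peaks. The strongest of the Atp10a peaks (chr7:58750035-58750535, intronic) had lymphomas from -0.36 through 2.26 to 4.44 log2 CPM, all below, T at 6.95, 6.00 and 6.43, NKT at 6.50, 6.50 and 6.49, and NK at 4.90, 6.14 and 6.48. All 3 peaks of Rb1cc1, an autophagy scaffold, of Pip4p2, a lipid phosphatase, and of Dmxl1 were lost peaks. The 3 at Dmxl1, 1 of those at Pip4p2 and 1 of those at Rb1cc1 had at most 6 lymphomas below under at least 1 other scaling.

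A run of 5 lost peaks around Tcf4 on chromosome 18 covered 395 kb and had a median difference of -2.93. Tcf4 encodes an E protein, a partner of many lymphoid transcription factors, and 3 of its 4 peaks were lost peaks. At its strongest promoter peak the lymphomas ran from -0.36 through 1.43 to 5.94 log2 CPM, with mPTCL 9 at 5.94 and mPTCL 5 at 4.75 high and 2 at the value of no count. T libraries stood at 6.21, 6.13 and 6.15, NKT at 5.79, 5.90 and 5.74, and NK at 6.46, 4.93 and 5.16. mPTCL 9 was above the lowest normal library at all 3.

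Runs of zinc-finger genes stood out by name, and the group was chosen after the runs were seen. Of 283 genes named Zfp, Zscan or Zkscan, 42 (14.8%) had a lost peak, and 45 of their 627 peaks (7.18%) were lost, beside 8.29% of all genes and 2.63% of all covered peaks. At promoters the count was 39 of 369 (10.6%), where 5.42% of all covered promoters were lost. They lay mainly on chromosome 7 (23 of 150, 15.3% beside 5.47% of its peaks), 9 (7 of 25, 28% beside 4.04%) and 18 (7 of 36, 19.4% beside 8.5%), and none on 1, 4, 5, 11, 14, 15 or 19. Under all 4 other scalings 25 of the 45 met the rule, beside 499 of all 1337 (37.3%). Zfp773 and Zfp418 lie in 1 run with 4 lost peaks over 50.8 kb. The Zfp418 peak (chr7:7170924-7171424) had lymphomas from 1.45 through 3.34 to 3.97 log2 CPM, T at 5.25, 5.31 and 4.78, NKT at 4.85, 5.09 and 4.98, and NK at 4.28, 5.20 and 5.97.

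Gene lists were described by the share of their peaks that were lost, beside 2.63% of all covered peaks (0.981% under all 4 other scalings). These base shares were not matched for class or level: 5.42% of covered promoter peaks and 13.7% of the strongest decile were lost. T-cell transcription factors had 18 of 372 (4.84%), in 11 of 26 genes, of which 9 (2.42%) met the rule under all scalings. The p53 pathway had 6 of 66 (9.09%) and 2 under all scalings, TGF-beta, Notch and Wnt 8 of 150 (5.33%) and 3, and lymphocyte quiescence 6 of 114 (5.26%) and 1. The TCR complex and proximal signalling had 3 of 224 (1.34%), NK receptors and adaptors 1 of 88 (1.14%), and antigen presentation 0 of 47. A peak closed in a normal group could hardly meet the rule, so low shares of lists with group-specific genes were partly set in advance. Some lists share genes (Klf2, Foxp1, Cdkn1b, Tgfbr1, Tgfbr2 and Smad7 among them).

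**Figure D5:**
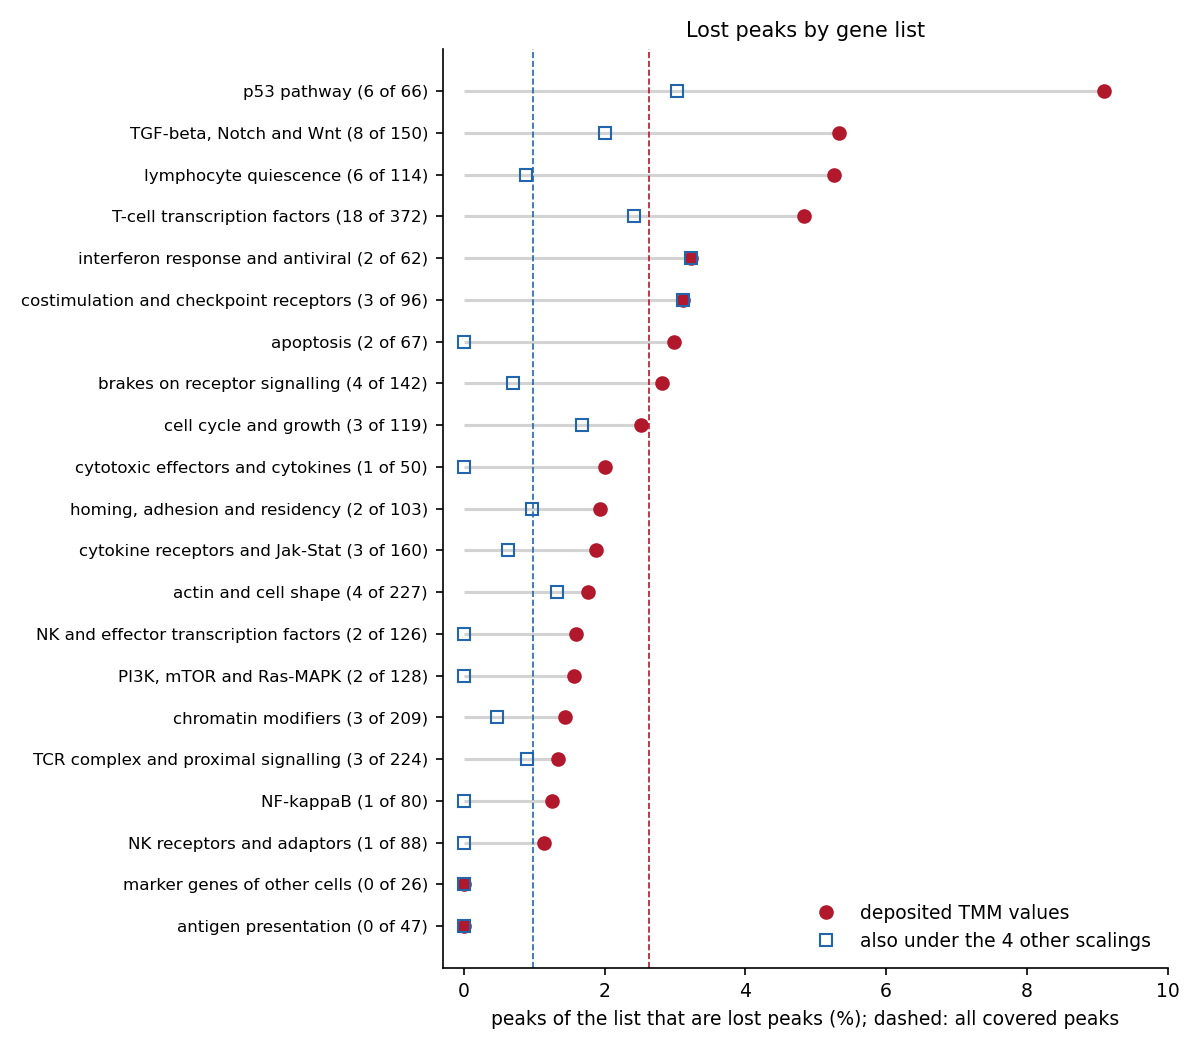
Share of each list's covered peaks that were lost (x axis, percent), with the count in brackets, for 21 gene lists (y axis). Red circles use deposited values, blue squares the peaks that also met the rule under 4 other scalings, and dashed lines give 2.63% and 0.981% for all covered peaks. The p53 pathway is highest at 9.09%, from 6 peaks, and the dashed lines are not matched for peak class or level.

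Among the T-cell factors, Ets1, needed for T- and NK-cell development, had 4 lost peaks of 20. The intronic one with the widest margin (chr9:32672112-32672612) had lymphomas from -0.36 through 2.93 to 3.84 log2 CPM, T at 4.66, 3.87 and 3.98, NKT at 3.92, 4.69 and 4.64, and NK at 4.12, 3.75 and 4.05. 8 lymphomas were below and mPTCL 6 was not. Tox, known from developing and exhausted T cells, had 3 lost peaks of 17, all intronic. The widest had lymphomas from 2.34 through 3.13 to 4.69 log2 CPM and normal libraries from 4.49 to 6.00. Bach2, which restrains effector differentiation, had 2 of 21, with its promoter peak at 4.21 through 4.64 to 5.25 in the lymphomas and 5.16 to 6.25 in the normal libraries. An Ikzf2 (Helios) flanking peak split the lymphomas: mPTCL 9 at 4.54 and mPTCL 5 at 3.81 log2 CPM lay among the normal libraries (2.77 to 5.11), and the other 7 lay at -0.36 to 1.96.

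Costimulation and checkpoint receptors had 3 lost peaks of 96 (3.12%), all in Slamf6 and Icos, and all 3 met the rule under all 4 other scalings, beside 0.981% of covered peaks. The Slamf6 promoter (chr1:171917351-171917851), of a SAP-coupled receptor, was lost in all 9 lymphomas, at -0.36 through 1.59 to 2.34 log2 CPM. T libraries stood at 4.24, 3.59 and 3.98, NKT at 3.13, 3.94 and 4.30, and NK at 3.72, 3.96 and 3.75, with no overlap. It met the rule under all scalings, as did a Slamf6 intron peak with 8 lymphomas below. The single Icos peak, a promoter, had a margin of 0.04, with lymphomas at 1.83 to 4.24 log2 CPM, T at 4.99, 4.92 and 4.94, NKT at 5.29, 6.19 and 5.94, and NK at 3.72, 3.75 and 4.42. So its NK libraries, not its T or NKT libraries, set the threshold. Cd247, the zeta chain of CD3, had 1 intronic lost peak at -0.36 to 2.67 log2 CPM in lymphomas and 2.68 to 4.10 in the normal libraries, and Cd6 had 1 of 5. Cd4, Cd5, Cd28 and Arpc2 had none, with widest margins of -3.70, -2.53, -0.29 and -0.17. This does not show that lymphomas kept the level of T cells. Cd5 peaks summed to 5.6 to 23.7 CPM in lymphomas and 48.4 to 93.9 in T libraries, but to 0 to 43.5 in NK libraries. Dpp4 and Cblb lie on chromosomes the rule left out, where their widest margins were 1.10 and 1.16.

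Brakes and cell-cycle inhibitors included a few deep losses. Cdkn1b, which encodes the inhibitor p27, had a flanking peak with all 9 lymphomas below, at 0.81 through 1.74 to 2.17 log2 CPM, against 2.30 to 4.35 in the normal libraries. Arid1b, a subunit of SWI/SNF remodelling complexes, had an intronic peak with a margin of 1.47 and lymphomas at 0.23 through 1.48 to 3.37, against 3.51 to 5.10. Gpr183, a receptor for oxysterols that guides lymphocytes, had a 5′ UTR peak where mPTCL 8 at 6.45 and mPTCL 2 at 5.19 stood among the normal libraries (3.75 to 6.47) and the other 7 at 0.34 to 2.73. Tgfbr2, the ligand-binding TGF-beta receptor, had an intronic peak at -0.36 through 0.95 to 3.08 in the lymphomas and 2.83 to 4.46 in the normal libraries. The promoter peaks of Tgfbr1, Irf8 and Gadd45a each had under 7 lymphomas below in at least 1 other scaling.

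In the p53 list, Sesn3, a stress-induced regulator of mTORC1, had the clearest separation, with lymphomas at 5.48 through 6.24 to 6.56 log2 CPM and normal libraries at 7.13 to 7.66, and it met the rule under all scalings. Trp53inp1 had lymphomas at 4.06 to 5.82 and normal libraries at 5.92 to 6.74, with 6 lymphomas below under loess. The lymphomas lacked p53 in their cells of origin while the normal cells were wild-type, and the list is small. The widest-margin lost peaks of its genes (Sesn3, Trp53inp1, Gadd45a, Aen and Ei24) were all promoters, a class with 5.42% lost. The part of p53 was not tested.

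The remaining lists each had at most 4 lost peaks. Interferon response and antiviral genes had 2 lost peaks of 62, apoptosis 2 of 67, brakes on receptor signalling 4 of 142 and cell cycle and growth 3 of 119. Cytotoxic effectors and cytokines had 1 of 50, homing, adhesion and residency 2 of 103, cytokine receptors and Jak-Stat 3 of 160, actin and cell shape 4 of 227, and NK and effector transcription factors 2 of 126. PI3K, mTOR and Ras-MAPK genes had 2 of 128, chromatin modifiers 3 of 209 and NF-kappaB genes 1 of 80. With so few lost peaks in a list, 1 peak moves its share by a large part.

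Listed promoters differed in the size of the shortfall, with a median lymphoma minus mean normal of -4.50 at Tle1, -1.07 at Ski, -1.0 at Klf2, -0.85 at Relb and -0.72 at Jak2. Klf2, which keeps naive T cells quiescent and directs their exit from lymphoid organs, had a promoter peak (chr8:72318888-72319388) at 5.69 through 6.05 to 6.68 log2 CPM in lymphomas. Its T libraries stood at 6.79, 6.86 and 7.31, NKT at 7.57, 7.13 and 7.05, and NK at 6.89, 7.30 and 6.63. Of the lymphomas, 8 were below, and 2 were under cyclic loess. Relb, a subunit of NF-kappaB, had all 9 lymphomas below at 5.78 through 6.54 to 6.76, against 7.08 to 8.07 in the normal libraries, and again 2 below under loess. Jak2, the kinase of many cytokine receptors, had lymphomas at 4.49 through 5.36 to 5.60 and normal libraries at 5.75 to 6.59, with 5 lymphomas below under loess. Ski, a repressor of Smad signalling, kept 8 lymphomas below under loess, with lymphomas at 5.46 through 6.16 to 6.51 and normal libraries at 6.86 to 7.63. Trim30a, an interferon-induced gene, had a weaker promoter peak at 2.20 through 3.19 to 3.99 in lymphomas and 4.07 to 5.16 in the normal libraries, and met the rule under all scalings.

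The test between normal groups was not used to choose the peaks, but the rule required all 9 normal libraries to be high, which favours peaks that differ little among them. NKT against T cells gave 22 calls (14 higher and 8 lower in NKT) among the 1337, or 1.65% beside 5.23% of all tested peaks. NK against T cells gave 11 calls (2 higher, 9 lower; 0.823% beside 4.80%), and NK against NKT cells 58 (8 higher, 50 lower; 4.34% beside 17.1%), all from edgeR with Benjamini-Hochberg adjustment. Beside Tle1, the largest changes were decreases in NK cells at peaks of few NK counts. At a Lpcat3 intron peak the NK minus T difference was -2.99 ± 0.81 log2 units (SE, edgeR, adjusted p = 0.0274), with 2, 2 and 2 NK counts. At a Diaph3 intron peak it was -2.85 ± 0.65 (edgeR, adjusted p = 0.00988), with 2, 2 and 4. The Tusc1 promoter, with 36, 47 and 53 NK counts, was 2.16 ± 0.58 higher in NK than in NKT cells (edgeR, adjusted p = 0.0113). A Pde4b flanking peak was 2.16 ± 0.49 higher in NKT than in T cells (edgeR, adjusted p = 0.00596), and a Fgfr2 intron peak 1.76 ± 0.51 higher (edgeR, adjusted p = 0.0361). The Klf13 promoter was 0.87 ± 0.26 higher in NK than in T cells (edgeR, adjusted p = 0.0444). These counts depended on the fit: with the 9 normal libraries alone they were 123, 61 and 144, and leaving out 1 library gave 3 to 7, 2 to 17 and 13 to 42.

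Other peaks of the same genes share the contrast with the rule, so their values are a description. Of 3759 other peaks of genes with a lost peak, 995 (26.5%) were called lower against NKT cells, beside 14.6% of all covered peaks that were not lost. The medians of the 3759 peaks against NKT, T and NK cells were -0.27, -0.19 and -0.06 log2 units, beside 0.46, 0.41 and 0.42. At least 2 kb from any lost peak 742 of 2955 (25.1%) were called lower against NKT cells, and the medians were -0.12, -0.08 and -0.01. The smaller deposited table, analysed by the same rule, gave 616 lost peaks of 21829 (2.82%). Of 1212 lost peaks with the same start there, 583 were lost in both.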

How the data were processed

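ATAC-seq libraries of 9 lymphomas and 3 T, 3 NKT and 3 NK samples were analysed from 2 deposited tables of counts and log2 CPM per peak. The deposited counts are whole-number reads per peak, not normalized, and the deposited log2 CPM values equal, within 5e-04, TMM-scaled values with a prior count of 2 recomputed from those counts. Peak positions and classes are the authors' own, given with the deposited tables. Per the submitters' processing notes, the authors used MACS2 2.1.2, bedtools and edgeR 3.24.3 with the mm10 build. The sources used here do not give how reads were aligned, deduplicated or shifted, or how peaks entered the tables. The members and lists were chosen with earlier results of these data known.

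Membership used the deposited log2 CPM. Counts were fitted in R 4.3.3 with edgeR 4.0.16 (for cyclic loess limma 3.58.1, as an alternative DESeq2 1.42.0): TMM, filterByExpr, and 1 quasi-likelihood fit over 18 libraries and 4 groups, with two-sided p-values and Benjamini-Hochberg adjustment over 61220 peaks at 0.05. The script was tested on simulated data. Figures and summaries used Python 3.11.15 with pandas 2.3.3, numpy 2.4.6, scipy 1.17.1 and matplotlib 3.10.9. Alternatives were other scalings (RLE, library totals, TMM within each chromosome, loess), other numbers of lymphomas, a mean count of at least 20, a prior count of 0.5, leaving out libraries and the smaller table. Named were the 15 peaks of widest margin, genes with most lost peaks, up to 5 peaks a list, peaks at the edge of the rule, the largest called changes between normal groups and 12 genes reported in every case. Zinc-finger genes were added afterwards. Promoter sequence came from RefSeq GRCm38.p6, and no genome was used. The interval on the promoter share covers counting error only. It takes the lost peaks as independent, although 441 of them had another within 50 kb. 0 value columns were left unmapped. Chi-square per degree of freedom was at least 2.244 for each pair of libraries in a group, so no pair was merged.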

Additional observations from a re-analysis of the deposited data

Results flagged for a closer look

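One value stood apart from its group by Dixon's criterion. At the Boll promoter peak, mPTCL 4 had 5.58 log2 CPM and the 8 other lymphomas 0.39 to 2.50, with normal libraries from 4.52 to 6.61. The criterion was applied to 16 sets of 9 lymphoma values and flagged 1. In sets not chosen by their values, chance flags about 1 in 20. The Boll peak was chosen from these same lymphoma values, by the rule of at least 7 of 9 below and by its wide margin. That rate therefore need not hold here, and no conclusion is drawn from the flag.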

How the results depend on the processing

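The number of lost peaks was 1337 and stayed within 1.5 times of that under RLE factors (1042), library totals (1154), TMM within each chromosome (1192) and cyclic loess (1252, chosen after seeing the data), but these were in part other peaks: 499 of the 1337 met the rule under all 4. It was 819 with at least 8 lymphomas below, 398 with 9, 5810 without the 3 NK libraries and 616 in the smaller table, and 1345 to 1915 with 1 normal library left out. The median difference against NKT cells was -1.22 (group means of log2 CPM), and -0.78 with RLE, -0.87 with totals, -0.97 within chromosomes, -0.55 with loess and -1.29 over peaks with all 9 below. Against T cells it was -1.14, then -0.90, -0.96, -1.0, -0.73 and -1.27 in that order, and against NK cells -0.99, with -0.88 within chromosomes and -1.13 with all 9 below. Promoters made up 66.3%, and 76.6% with all 9 below, 69.9% at a mean count of at least 20 and 38.8% with loess. Calls among lost peaks for NKT against T, NK against T and NK against NKT cells were 22, 11 and 58. They were 123, 61 and 144 with the 9 normal libraries alone, 56, 29 and 135 with DESeq2, and 7 for NK against T at a mean count of at least 20. With 1 library left out they were 3 to 7, 2 to 17 and 13 to 42. The cause was not tested. The shared replicate numbers did not pair the samples (correlations of deviations -0.037 to 0.047), and with the replicate block over the 9 normal libraries the calls were 73, 33 and 95. Of 88 alternatives, 42 left a result the same, 46 moved it and 0 reversed it. Shares of motifs in the central part of a peak were not run, as no genome was used. The NK libraries, of 417107 to 596601 counts in all, limited the precision: several peaks called between normal groups rested on 2 to 4 counts in each of them.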
